A study of Mus musculus with 4 samples.

Results

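The effect of adding OCT4 to SOX2, KLF4 and c-MYC was read from the deposited comparison of OSKM with SKM mouse embryonic fibroblasts. All genes at 1 RPKM (reads scaled to gene length and sequencing depth) or more in either group were taken, 10211 of the 27597 genes in the series. A total of 25856 genes were listed for this comparison. The fibroblasts came from embryonic skin at D13.5 (strain OGXICR), freed of the epidermis and grown in serum, and were infected with doxycycline-inducible lentivirus. OSKM cells received OCT4, SOX2, KLF4 and c-MYC, and SKM cells received SOX2, KLF4 and c-MYC. Levels were also read in G3SKM cells, which received GATA3 in place of OCT4, and in cells infected with an empty vector, the one group without delivered factors. No source used here gives the genotype of the strain, the time after induction or the share of cells infected.

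Both replicates of a group (2 each) are merged into 1 value per gene. No test was therefore possible, and no spread between replicates can be set beside any difference. Higher and lower below mean a size alone, a log2 ratio of RPKM + 1, OSKM over SKM, of at least 1 in size. Depth, recovered from the values in megareads, was 74.7 in OSKM and 54.0 in SKM, with 102 in G3SKM and 111 in empty vector. In bulk RNA, fewer cells that express a gene and less RNA per cell cannot be told apart.

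OCT4, encoded by Pou5f1, is a POU-domain transcription factor that binds the octamer motif, often together with SOX2, and is needed to establish and keep pluripotency in the early mouse embryo. Delivered with SOX2, KLF4 and c-MYC it can turn fibroblasts into induced pluripotent cells. In that process genes of the fibroblast are turned off early, epithelial genes are turned on, and the genes of the pluripotency network follow late and in few cells. Interferons act through a complex of STAT proteins and IRF9, which binds the interferon-stimulated response element (ISRE) in the promoters of their target genes.

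Promoter sequences from RefSeq (GRCm38.p6) are shown for some of the genes in which an ISRE core or octamer was found. The windows reach 20 bases to each side of the matches, within the 250 bases before the gene's start, and read 5′ to 3′ on the gene's strand. Capitals mark the ISRE core GAAANNGAA or its reverse complement for the first 4 genes, and the octamer ATGCAAAT or its reverse complement for the last 2, with overlapping matches joined.
Isg15, chr4:156200856-156200916, minus strand: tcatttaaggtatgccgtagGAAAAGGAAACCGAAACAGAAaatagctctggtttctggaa
Gbp3, chr3:142559980-142560034, plus strand: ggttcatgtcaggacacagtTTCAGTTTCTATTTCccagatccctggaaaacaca
Ifit1, chr19:34640760-34640833, plus strand: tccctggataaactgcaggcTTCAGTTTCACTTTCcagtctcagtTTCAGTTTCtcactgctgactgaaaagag
Bst2, chr8:71537568-71537622, minus strand: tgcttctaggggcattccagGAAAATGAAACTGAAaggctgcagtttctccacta
Nrarp, chr2:25180689-25180736, plus strand: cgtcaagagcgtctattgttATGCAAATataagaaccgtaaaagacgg
Zfp42, chr8:43307168-43307215, minus strand: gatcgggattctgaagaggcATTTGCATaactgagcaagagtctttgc

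The ISRE core stood in 18 of the 43 interferon response genes that matched a RefSeq promoter (41.9%), of 55 on the list. Over all 27025 genes with a promoter window it stood in 8.18%. Among the interferon genes called higher in OSKM, 4 had a window and 2 of them, Isg15 and Gbp3, held the core, against 9 of the 24 with a window among the 27 measured interferon genes that were not called higher. The octamer stood in 1.81% of all promoter windows, in 3 of 26 pluripotency genes (Zfp42, Zfp296 and Spp1) and in 1 of the 49 protein-coding genes called higher, Nrarp. Of the 60 protein-coding genes called lower with a window, 1 held it. A match describes these letters only and says nothing of binding.

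Of the 10211 genes, 260 were higher in OSKM (2.55%) and 167 were lower (1.64%), and the median log2 ratio was -0.01. Protein-coding genes gave 67 higher (0.951%) and 83 lower (1.18%) of 7048. Pseudogenes held 128 of the genes called higher, 7.36% of the 1738 measured, and reads that match both a gene and its processed copies cannot be placed. The ratio followed the base composition of the transcripts. The median log2 ratio was 0.56 in the most AT-rich of 20 bins of equal gene number and -0.48 in the most GC-rich. Spearman's rho with GC was -0.728 over 9478 genes of these libraries, which are not independent, and 0.0193 for OSKM over G3SKM. Transcript GC was known for 9478 genes, of which 2.47% were higher and 1.54% lower as deposited. With this trend removed, 91 were higher (0.96%) and 98 lower (1.03%).

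**Figure D1:**
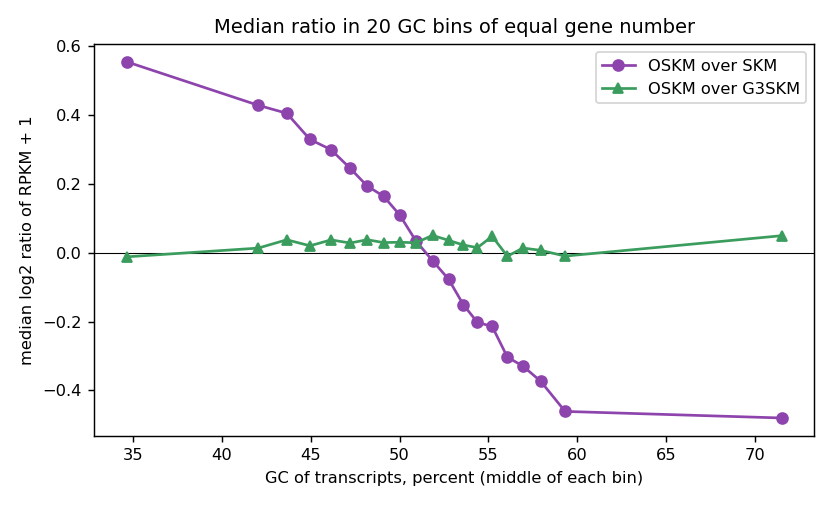
Median log2 ratio of RPKM + 1 (vertical axis) in 20 bins of transcript GC in percent (horizontal axis), for OSKM over SKM (circles) and OSKM over G3SKM (triangles). The line for OSKM over SKM runs down from 0.56 to -0.48, and that for OSKM over G3SKM stays close to 0.

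Past the size rule on both scales, as deposited and with the GC trend removed, were 74 genes higher (0.781%) and 74 lower (0.781%) of 9478. Of these, 30 higher (0.426%) and 32 lower (0.454%) were protein-coding. These 30 were chosen for a high OSKM level beside SKM, so their order in the other libraries is a description. OSKM had the highest level of the 4 libraries in 28 of them, and 24 were past the size rule in OSKM over each of SKM, G3SKM and empty vector. Of the 67 protein-coding genes higher as deposited, OSKM was highest in 48 and SKM lowest in 36. Over all 260 genes higher as deposited, OSKM was highest in 118 and SKM lowest in 217. Of these 260, OSKM was past the rule over each other library in 37, and SKM was past it under each other library in 93. The lower genes were ordered differently. Of the 32 on both scales, SKM had the highest level in 24, OSKM the lowest in 12, and 3 were past the rule in OSKM under each other library.

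**Figure D2:**
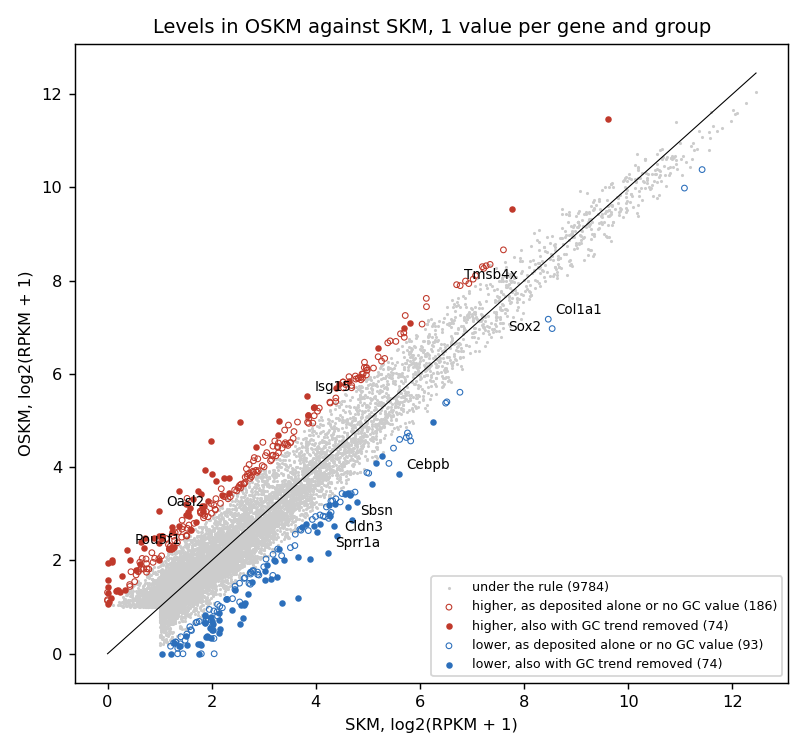
Level of each of the 10211 genes in OSKM (vertical axis) against SKM (horizontal axis), both as log2(RPKM + 1), with the line of equal levels. Filled points are the 74 higher and 74 lower genes past the size rule also with the GC trend removed, and open points the other 186 and 93 as deposited, of which 26 and 21 have no GC value.

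The delivered factors were read first. Pou5f1 was at 3.69 RPKM in OSKM and 0.297 in SKM, with 0.212 in G3SKM and 0 in empty vector, a log2 ratio of 1.86 as deposited and 2.06 with the GC trend removed. The level in OSKM was 12.4-fold that in SKM, and OSKM alone held more than 1 RPKM. The factors shared by both groups were all at lower levels in OSKM, though none by the size rule. Sox2 was at 110.5 RPKM in OSKM and 187 in SKM, a log2 ratio of -0.75, with 70.7 in G3SKM and 0.260 in empty vector. Klf4 was at 13.9 RPKM in OSKM and 19.3 in SKM (log2 ratio -0.45), and Myc at 10.5 in OSKM and 11.9 in SKM (-0.17). With the GC trend removed the ratios of Klf4 and Myc were -0.08 and 0.04, and that of Sox2 -0.87. Delivered and endogenous transcripts are not separated in these values. The addition of OCT4 and the lower Sox2 level cannot be told apart in this comparison.

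Genes of the interferon response mostly had higher levels in OSKM than in SKM. Of 55 on the list, 34 were measured. In OSKM, 7 of them were higher and 0 lower, beside 2.55% and 1.64% of all genes. Their median log2 ratio was 0.65, or 0.48 with the GC trend removed, beside -0.01 for all genes on either scale. The level in OSKM was above that in SKM in 30 of the 34 (88.2%, against 49.6% of all genes measured), and OSKM was the highest of the 4 libraries in 29 (85.3%, against 22.2%). The list was chosen with earlier results of these data known. Several of the 34, among them Oasl2, Gbp3 and Parp9 of the 7 higher, passed the filter only through their level in OSKM. These counts therefore carry no weight of their own.

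The effectors, the proteins that act on viral or cellular targets, held 6 of the 7 higher genes. Oasl2, an oligoadenylate synthetase-like protein, was at 7.32 RPKM in OSKM and 0.994 in SKM, with 1.14 in G3SKM and 0.895 in empty vector, a 7.37-fold difference between OSKM and SKM (log2 ratio 2.06). Isg15, a ubiquitin-like modifier, was at 45.0 RPKM in OSKM and 13.3 in SKM, with 12.9 in G3SKM and 19.5 in empty vector, 3.38-fold higher in OSKM than in SKM (3.16 to 3.62, the 95% Clopper-Pearson interval on the reads). For both genes OSKM stood apart from the 3 libraries without OCT4. Rtp4, a transporter-like protein induced by interferon, was at 7.20 RPKM in OSKM and 1.90 in SKM, with 2.29 in G3SKM and 2.75 in empty vector (log2 ratio 1.5). Gbp3, a guanylate-binding GTPase, was at 2.54 RPKM in OSKM and 0.561 in SKM, with 0.734 in G3SKM and 0.344 in empty vector (log2 ratio 1.18). Its ratio was 0.93 with the GC trend removed, so it was not past the rule on both scales.

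Parp9, an ADP-ribosyltransferase family member, was at 1.92 RPKM in OSKM and 0.435 in SKM, with 0.646 in G3SKM and 0.700 in empty vector, 4.42-fold higher (4.10 to 4.77). Its log2 ratio of 1.02 became 0.72 with the GC trend removed. Ifi27, an interferon-inducible mitochondrial protein, was at 6.06 RPKM in OSKM and 2.24 in SKM, with 3.99 in G3SKM and 6.31 in empty vector. In this gene the empty vector cells were level with OSKM, so the difference lay in the low value of SKM. The remaining effectors past the filter were below the rule as deposited but lay on the same side. Ifit1, which binds viral RNA, was at 1.40 RPKM in OSKM and 0.283 in SKM, with 0.333 in G3SKM and 0.704 in empty vector, a 4.92-fold ratio (4.12 to 5.92). Ifit3 was at 1.14 RPKM in OSKM and 0.178 in SKM, a 6.39-fold ratio (4.76 to 8.75). Bst2, a protein that tethers virus particles to the cell surface, was at 42.2 RPKM in OSKM and 24.1 in SKM, with a log2 ratio of 0.78 as deposited and 1.11 with the GC trend removed.

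Among the transcription factors, Irf7, the factor that drives interferon production, was the 1 of 5 called higher. Irf7 was at 9.96 RPKM in OSKM and 4.07 in SKM, with 2.36 in G3SKM and 2.38 in empty vector, 2.45-fold higher in OSKM than in SKM (2.27 to 2.65). Irf9, the DNA-binding part of the complex that carries the receptor signal to the nucleus, was at 6.46 RPKM in OSKM and 4.04 in SKM, with a log2 ratio of 0.57. Stat2 and Irf1 had ratios of 0.38 and 0.02. The only sensor past the filter was Ddx58, the RNA sensor RIG-I, at 1.58 RPKM in OSKM and 0.642 in SKM, with 0.947 in G3SKM and 1.40 in empty vector.

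Interferons also induce genes of antigen presentation, and none of the 8 measured was past the rule in either direction. Their median log2 ratio was 0.06, against 0.84 for the 20 effectors. This gap was smaller with the GC trend removed, 0.31 against 0.71. Over G3SKM the medians were 0.55 for antigen presentation and 0.79 for effectors, and over empty vector 0.66 and 0.79. B2m, the light chain of class I molecules, was at 52.7 RPKM in OSKM and 28.2 in SKM (log2 ratio 0.88). H2-K1 was at 15.9 RPKM in OSKM and 16.0 in SKM, and Psmb10, a subunit of the immunoproteasome, was at 13.7 in OSKM and 18.0 in SKM. Whether effectors and antigen presentation genes differ beyond chance cannot be tested on 1 value per group.

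**Figure D3:**
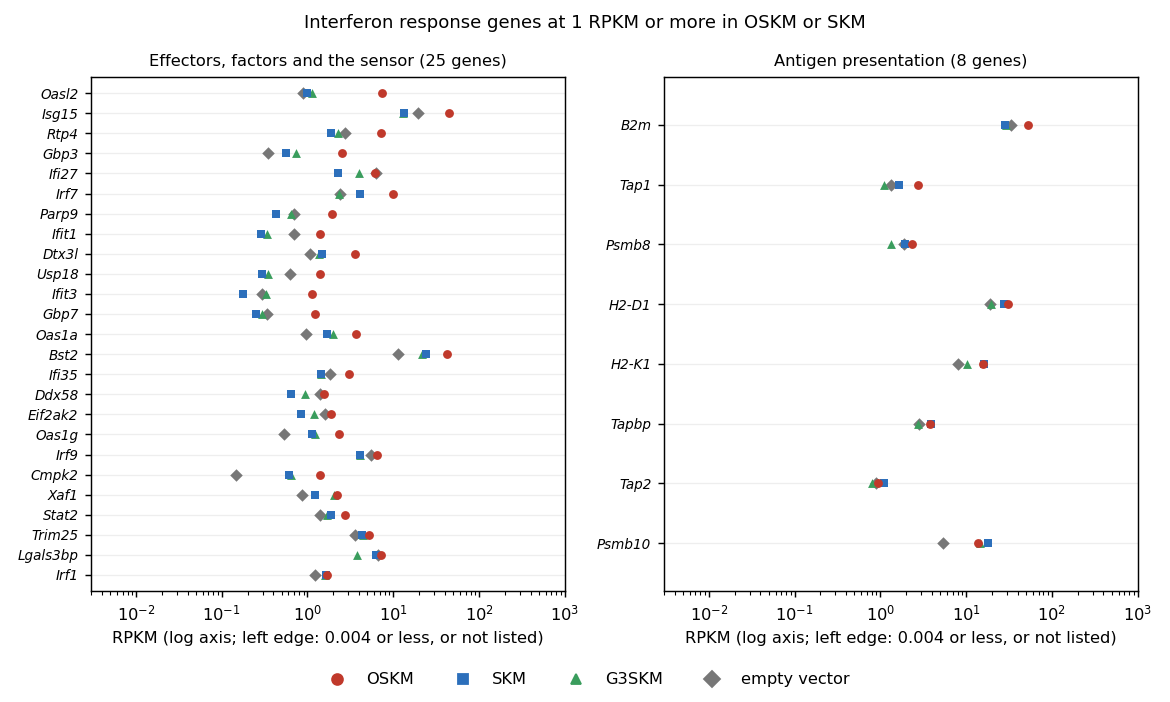
Level in RPKM (log axis) of 33 of the measured interferon response genes in OSKM, SKM, G3SKM and empty vector, 1 point per library, with effectors, factors and the sensor on the left and antigen presentation on the right. The OSKM point is the highest of the 4 in 28 of them, and the antigen presentation genes lie closer together.

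The deposited values divide by the whole gene, introns included, and 20 of the 54 interferon genes listed lay under 1 RPKM in both groups. On a scale of exon length, 49 were measured and 24 were higher in OSKM with 0 lower, beside 3.99% and 1.95% of 14947 genes, and the median log2 ratio was 0.93 beside 0.06 for all. With the GC trend also removed, 19 were higher and 0 lower, beside 2.13% and 1.1% of genes. This filter too could be passed through the level in OSKM alone, and the list was the same. These counts therefore carry no weight of their own either. Of all 54 interferon genes listed, filter aside, 49 had a higher level in OSKM than in SKM, beside 14636 of all 25856 genes. Rsad2, an enzyme that blocks viral replication, was at 0.925 RPKM in OSKM and 0.050 in SKM, with 0.0719 in G3SKM and 0.0401 in empty vector, an 18.5-fold ratio. Mx1 was at 0.0666 RPKM in OSKM and 0.0105 in SKM, from 79 and 9 reads, a 6.35-fold ratio (3.18 to 14.4). Oas1a and Oas1g, Ifit3 and Ifit3b, and the Gbp genes are close copies, between which reads may be split.

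Pluripotency genes were higher in a few cases and at low levels. Of 40 on the list, 8 were measured, of which 3 were higher and 0 lower, beside 2.55% and 1.64% of all genes, with a median log2 ratio of 0.07 beside -0.01. The 3 passed the filter only through their level in OSKM, so their count carries no weight of its own. L1td1, an RNA-binding protein of pluripotent cells, was at 2.17 RPKM in OSKM and 0.211 in SKM, with 0.186 in G3SKM and 0.00153 in empty vector, 10.3-fold higher (8.63 to 12.4). Fgf4, the growth factor of the inner cell mass whose enhancer binds OCT4 and SOX2, was at 1.15 RPKM in OSKM and 0.0192 in SKM, with 0.0409 in G3SKM and 0 in empty vector, a ratio of 60.0-fold. Nr0b1 (DAX1), a nuclear receptor of embryonic stem cells, was at 1.10 RPKM in OSKM from 343 reads and had no reads in SKM. Against a floor of 3 SKM reads the difference was at least 82.7-fold. For each of these 3 genes, SKM and G3SKM were alike near 0 and OSKM stood apart, and all 3 stayed past the rule with the GC trend removed.

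Other genes of the network lay under the filter, with more reads in OSKM than in SKM. Sall4, a partner of OCT4, was at 0.106 RPKM in OSKM and 0.00660 in SKM, from 156 and 7 reads, a 16.1-fold ratio (7.64 to 40.8). Utf1, a chromatin protein of embryonic stem cells, was at 0.576 RPKM in OSKM and 0.0559 in SKM, from 57 and 4 reads, a 10.3-fold ratio (3.81 to 39.1). These levels are small parts of an RPKM, and the intervals cover counting error only.

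Gdf3, a TGF-beta family ligand, had 43 reads in OSKM and 0 in SKM, at least a 10.4-fold difference against the floor. Tdgf1, the co-receptor of NODAL, was at 0.139 RPKM in OSKM and had no reads in SKM, and Zfp42 (REX1), whose octamer is shown above, was at 0.0527 RPKM in OSKM, with no reads in SKM and 0.0124 RPKM in G3SKM. Not all of the list went this way. Zfp296, whose promoter also held the octamer, had a log2 ratio of -0.45, or 0.01 with the GC trend removed. Nanog was at 0.137 RPKM in OSKM and 0.0906 in SKM, with 0.131 in G3SKM, a ratio whose interval holds 1 (1.51-fold, 0.995 to 2.33). Lin28a was at 0.0794 RPKM in OSKM and 0.148 in SKM, Dnmt3l at 0.00494 in OSKM and 0.0265 in SKM, and Klf2 at 1.67 in OSKM and 3.80 in SKM. Of 37 pluripotency genes listed, 26 had a higher level in OSKM than in SKM and 11 a lower one, beside 14636 and 11220 of all 25856 genes.

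Beyond these lists, several protein-coding genes were past the rule in OSKM over every other library, so that OSKM is their highest level by this choice. Those under 5 RPKM that are described here were chosen after their values were seen. Msc (musculin), a basic helix-loop-helix repressor, was at 3.05 RPKM in OSKM and 0.0636 in SKM, with 0.0827 in G3SKM and 0.0172 in empty vector, a 48.0-fold ratio. Cbln2, a synaptic organiser, was at 2.93 RPKM in OSKM and 0.0619 in SKM, with 0.0618 in G3SKM and 0.00502 in empty vector, 47.4-fold higher (31.7 to 74.2). Both genes were near 0 in every library without OCT4. Nrarp, an inhibitor and target of Notch signalling whose octamer is shown above, was at 5.56 RPKM in OSKM and 1.35 in SKM, with 0.915 in G3SKM and 0.294 in empty vector (log2 ratio 1.48). The other Notch genes did not share this. Of 9 measured, Nrarp was higher and Dlk1 lower, beside 2.55% and 1.64% of all genes. The target Hes1 was at 2.89 RPKM in OSKM and 3.67 in SKM.

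Foxd1, a forkhead factor of kidney stroma, was at 8.66 RPKM in OSKM and 2.80 in SKM, with 1.85 in G3SKM and 2.33 in empty vector. Pou3f4, a POU factor of the developing brain and inner ear, was at 5.34 RPKM in OSKM and 2.05 in SKM, with 0.809 in G3SKM and 0.183 in empty vector. Cited1, a transcriptional co-regulator, was at 1.59 RPKM in OSKM and 0.154 in SKM, 10.3-fold higher (7.47 to 14.6). Each of these 3 factors had its highest level in OSKM, as the choice required. Aqp3, a water and glycerol channel of epidermis, was at 6.88 RPKM in OSKM and 1.84 in SKM, with 2.07 in G3SKM and 0.00165 in empty vector, 3.74-fold higher (3.41 to 4.11). Fgfbp1, a secreted carrier of fibroblast growth factors, was at 4.61 RPKM in OSKM and 0.651 in SKM, with 0.704 in G3SKM and 0.00311 in empty vector. In both genes SKM and G3SKM also lay above empty vector.

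The examples continue with Nefl, Pcsk1n and Penk. Nefl, the light neurofilament chain, was at 3.81 RPKM in OSKM and 0.615 in SKM, with 0.998 in G3SKM and 0.0499 in empty vector, 6.2-fold higher (5.29 to 7.29). Pcsk1n, an inhibitor of a prohormone convertase, was at 4.58 RPKM in OSKM and 0.867 in SKM, with 0.313 in G3SKM, 5.28-fold higher (4.57 to 6.11). Penk, the enkephalin precursor, was at 1.3 RPKM in OSKM and 0.0420 in SKM, with 0.0801 in G3SKM, 31.0-fold higher (17.6 to 60.5). All 3 were highest in OSKM, again by the choice. On the exon-length scale the largest rise was Gap43, a growth cone protein, at 19.5 RPKM of exon length in OSKM and 1.46 in SKM, with 2.59 in G3SKM. Its log2 ratio was 3.06 on that scale and 0.37 as deposited, where introns count as length. Scg5, a secretory granule chaperone, was at 8.70 RPKM of exon length in OSKM and 0.342 in SKM, a 25.4-fold ratio.

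**Figure D4:**
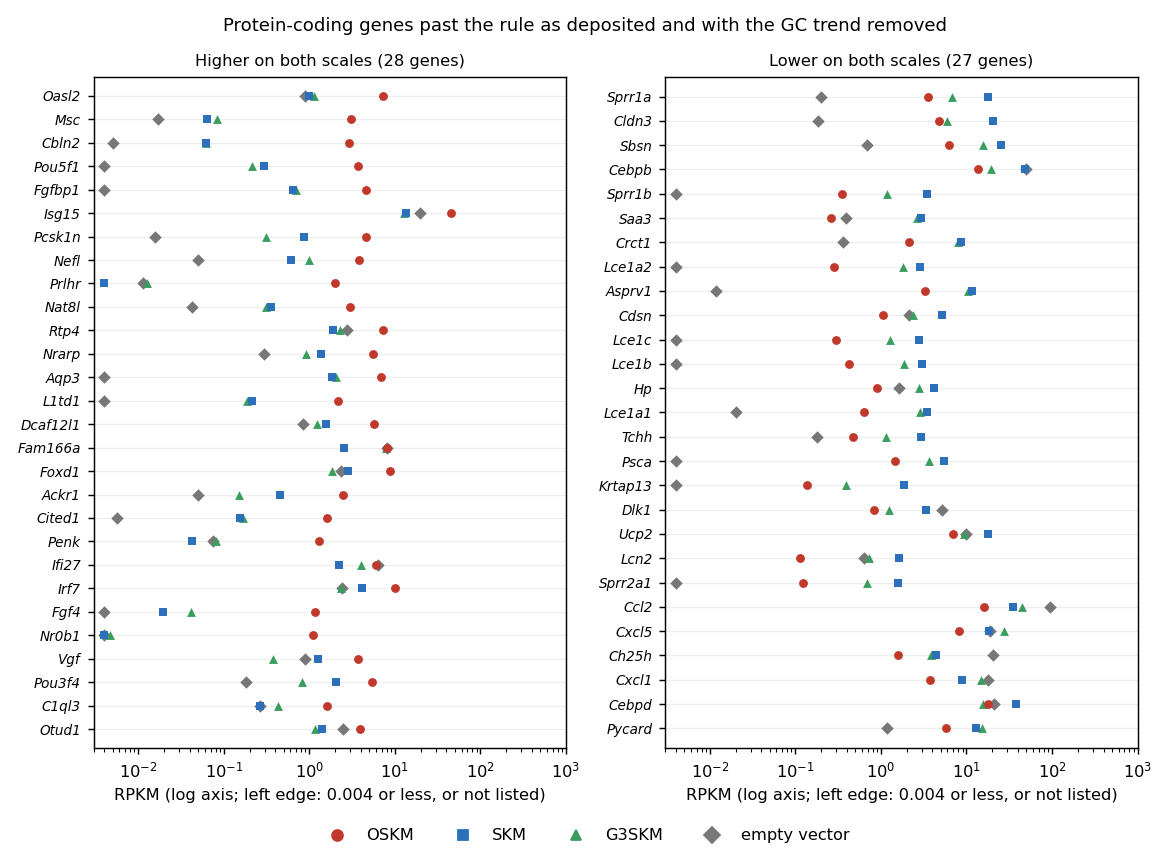
Level in RPKM (log axis) in OSKM, SKM, G3SKM and empty vector, 1 point per library, for protein-coding genes with a symbol of their own past the size rule both as deposited and with the GC trend removed, 28 higher on the left and 27 lower on the right, without those not reported. On the left OSKM is the highest point for all genes except Fam166a and Ifi27, and on the right most genes are highest in SKM.

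The gene with the largest log2 ratio, 2.58, was a pseudogene, Gm11578, chosen after its values were seen. It was at 22.7 RPKM in OSKM and 2.95 in SKM, with 4.06 in G3SKM and 0.157 in empty vector, 7.69-fold higher (6.04 to 9.91). All 459 bases of its annotated transcript are found without mismatch in a transcript of Lix1, a gene first described in limb development. Lix1 itself was at 0.650 RPKM in OSKM and 0.0796 in SKM, 8.17-fold that in SKM (7.16 to 9.35), and its log2 ratio was 2.34 on the exon-length scale. Reads of Gm11578 and Lix1 cannot be told apart over these bases.

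Other genes were called higher where the SKM library alone was low. Tmsb4x, an actin-binding peptide chosen after its values were seen, was at 240 RPKM in OSKM and 103 in SKM, with 283 in G3SKM and 613 in empty vector. Prdx1, a peroxidase, was at 18.0 RPKM in OSKM and 7.19 in SKM, with 21.7 in G3SKM and 17.6 in empty vector. Rpl22l1 was at 26.8 RPKM in OSKM and 9.57 in SKM, with 50.5 in G3SKM and 30.8 in empty vector. In these genes SKM was the lowest library. OSKM lay between G3SKM and empty vector for Prdx1 and below both for Tmsb4x and Rpl22l1. All 3 were called higher as deposited and had log2 ratios of 0.90, 0.80 and 0.96 with the GC trend removed. Both ribosomal protein genes called higher, Rpl22l1 and Rpl39, were lost in this way, and the median of all 81 ribosomal protein genes was -0.21 as deposited and -0.11 with the trend removed.

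Proteins of the cornified envelope, the cross-linked shell of terminally differentiated epidermal cells, were common among the lower protein-coding genes. Of 39 on the list, 22 were measured, of which 0 were higher and 11 lower in OSKM, beside 2.55% and 1.64% of all genes. Their median log2 ratio was -1.07 beside -0.01 for all genes. With the GC trend removed 9 were lower, beside 1.03% of all genes, and the median was -0.84. SKM had the highest level of the 4 libraries in 18 of the 22 (81.8%, against 34.7% of all genes measured). This order is of levels as deposited, with the GC trend kept. Compared with empty vector instead of SKM, the list's median log2 ratio in OSKM was 0.56, beside 0.20 for all genes. Empty vector had the lowest level in 19 of the 22, beside 4814 of all 10211 genes. Of the 146 lower genes with a known chromosome, 17 lie on chromosome 3 (11.6%, against 4.71% of all 9478 genes placed), and 13 of these are late cornified envelope (Lce) and small proline-rich (Sprr) genes or their neighbours, which form a cluster there. Several lower genes, among them Sprr1b, Lce1a1, Lce1a2, Lce1b and Lce1c, passed the filter only through their level in SKM. These counts therefore carry no weight of their own. Filter aside, 33 of the 37 cornified envelope genes listed had a lower level in OSKM than in SKM, beside 11220 of all 25856 genes.

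Sprr1a, a substrate cross-linked into the envelope, was at 3.51 RPKM in OSKM and 17.9 in SKM, with 6.78 in G3SKM and 0.20 in empty vector, 5.11-fold lower in OSKM than in SKM (log2 ratio -2.07). Sbsn, a secreted epidermal protein, was at 6.26 RPKM in OSKM and 25.0 in SKM, with 15.5 in G3SKM and 0.683 in empty vector (log2 ratio -1.84). Crct1 was at 2.15 RPKM in OSKM and 8.54 in SKM, with 7.99 in G3SKM and 0.364 in empty vector, 3.97-fold lower (3.42 to 4.63). In each, the order of levels was SKM, G3SKM, OSKM and empty vector. Cdsn, a glycoprotein that holds cornified cells together, was at 1.06 RPKM in OSKM and 5.11 in SKM, with 2.40 in G3SKM and 2.12 in empty vector, 4.81-fold lower (4.30 to 5.39). Lce1a2 was at 0.283 RPKM in OSKM and 2.83 in SKM, with 1.79 in G3SKM and 0 in empty vector, 9.99-fold lower (7.03 to 14.6). Members of the Lce and Sprr families are close copies, and their separate values are uncertain.

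Not every epidermal gene was lower. Cnfn, a cornified envelope protein, was at 12.5 RPKM in OSKM and 10.7 in SKM, with 4.13 in G3SKM and 0 in empty vector. Tgm3, a cross-linking enzyme, was at 0.189 RPKM in OSKM and 0.0267 in SKM, 7.07-fold higher (5.35 to 9.51), though under the filter. Of 9 keratins measured, the filament proteins of epithelia, 1 was lower, Krt16, beside 1.64% of all genes, and the median log2 ratio was -0.75 beside -0.01. With the GC trend removed 0 of 9 were past it and the median was -0.45. Krt14, of basal epidermis, was at 16.5 RPKM in OSKM and 33.8 in SKM, with 22.8 in G3SKM and 0.0656 in empty vector. SKM was the highest library in 8 of the 9 (88.9%, against 34.7% of all genes measured), with the GC trend kept. Krt6b was at 4.78 RPKM in OSKM and 4.60 in SKM. The summed level of the 37 cornified envelope genes listed for this comparison was 55 RPKM in OSKM, 145 in SKM, 92.7 in G3SKM and 11.4 in empty vector. Sox2 and Klf4 levels also differed between OSKM and SKM as deposited, that of Klf4 hardly with the GC trend removed (log2 ratio -0.08). Their part in the values of epidermal genes was not tested.

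Cldn3, a protein of tight junctions, was at 4.72 RPKM in OSKM and 20.3 in SKM, with 5.98 in G3SKM and 0.186 in empty vector, 4.30-fold lower (3.86 to 4.79). It was the only one past the rule of the 6 junction genes measured, beside 1.64% of all genes lower. In this gene OSKM and G3SKM lay close together, below SKM and above empty vector.

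**Figure D5:**
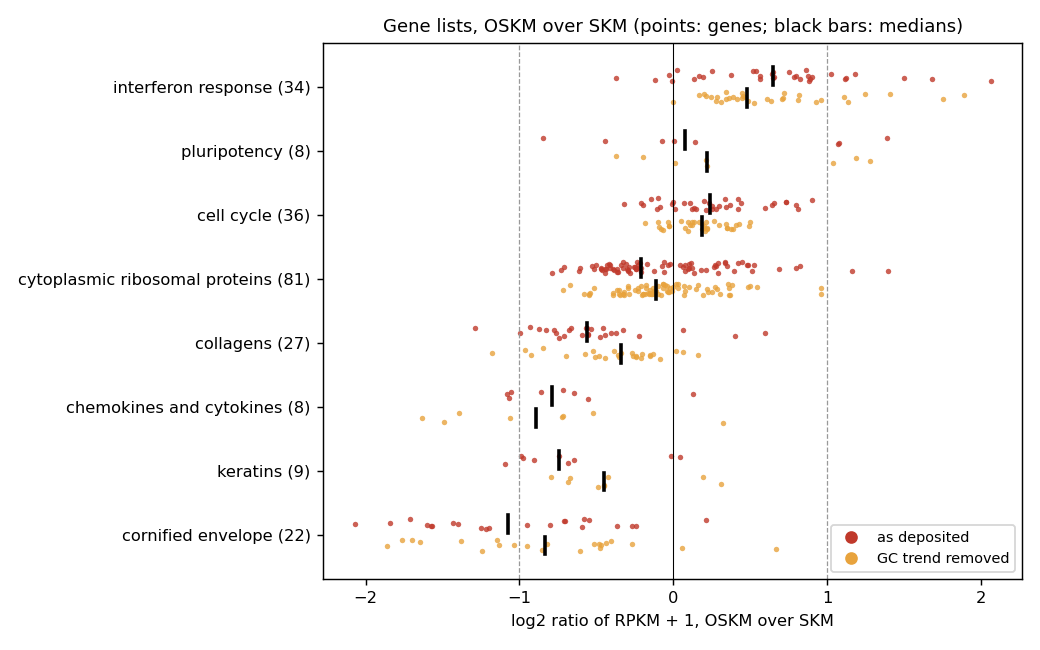
Log2 ratio of RPKM + 1, OSKM over SKM (horizontal axis), for the measured genes of 8 lists (number of genes in brackets), as deposited (red) and with the GC trend removed (orange). Points are genes, black bars medians and dashed lines the size rule, and the interferon response and cornified envelope lists lie on opposite sides of 0, with medians of 0.65 and -1.07 as deposited.

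Of 8 chemokine and cytokine genes measured, 3 were lower and 0 higher, beside 1.64% and 2.55% of all genes, with a median log2 ratio of -0.79 beside -0.01. With the GC trend removed 4 were lower, beside 1.03% of all genes, Ccl7 being added, and the median was -0.89. Ccl2, which attracts monocytes, was at 15.9 RPKM in OSKM and 34.8 in SKM, with 44.6 in G3SKM and 93.5 in empty vector, 2.18-fold lower (2.07 to 2.30). Cxcl1, which attracts neutrophils, was at 3.75 RPKM in OSKM and 8.87 in SKM, with 14.9 in G3SKM and 17.9 in empty vector, 2.37-fold lower (2.12 to 2.64). Cxcl5 was at 8.13 RPKM in OSKM and 18.2 in SKM, with 27.3 in G3SKM and 18.7 in empty vector. These were the 3 protein-coding genes on both scales whose level in OSKM was past the rule under each of the other libraries.

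Of 6 C/EBP family genes measured, Cebpb and Cebpd were lower (2 of 6) and 0 were higher, beside 1.64% and 2.55% of all genes. Of the 6, 2 had ratios above 0. Cebpb, a factor that drives acute-phase and cytokine genes, was at 13.5 RPKM in OSKM and 47.7 in SKM, with 19.4 in G3SKM and 49.1 in empty vector, 3.55-fold lower (3.34 to 3.76). Cebpd was at 17.8 RPKM in OSKM and 37.5 in SKM, with 15.6 in G3SKM and 20.8 in empty vector. Both were past the rule also with the GC trend removed, and for Cebpb OSKM and G3SKM were low while SKM and empty vector were alike. Saa3, an acute-phase protein, was at 0.258 RPKM in OSKM and 2.95 in SKM, with 2.64 in G3SKM and 0.389 in empty vector, an 11.4-fold lower value. Lcn2, an iron-scavenging protein of inflammation, was at 0.114 RPKM in OSKM and 1.64 in SKM, with 0.728 in G3SKM and 0.637 in empty vector. Lcn2 was chosen after its values were seen.

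Macrophage markers were also at lower levels in OSKM than in SKM in 10 of 12, though none of the 3 past the filter was past the rule as deposited. The 12 markers summed to 2.59 RPKM in OSKM and 5.91 in SKM, with 4.35 in G3SKM and 64 in empty vector, and none was at 0 in any library. Lyz2 was at 0.276 RPKM in OSKM and 1.36 in SKM, with 16.4 in empty vector, and Ptprc, the pan-leukocyte marker CD45, was at 0.00143 in OSKM and 0.000329 in SKM. Their sum was far higher in empty vector than in SKM. Ccl2 and Cxcl1 were also higher in empty vector than in SKM, Cxcl5 and Cebpb were close, and Saa3 was lower. The part of macrophages in these values was not tested. The 12 fibroblast markers were present in every library, with summed levels of 426 RPKM in OSKM, 696 in SKM, 444 in G3SKM and 960 in empty vector. Col1a1 alone was at 143.5 RPKM in OSKM and 352 in SKM. It was the 1 lower of 10 fibroblast markers past the filter, beside 1.64% of all genes, and their median log2 ratio was -0.15. Endothelial markers summed to 0.384 in OSKM and 0.41 in SKM.

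Of 27 collagen genes and modifying enzymes measured, 1 was lower, Col1a1, a share near the 1.64% of all genes, with a median log2 ratio of -0.56, or -0.34 with the GC trend removed. Col1a1, the main chain of collagen I, was at 143 RPKM in OSKM and 352 in SKM, with 166 in G3SKM and 332 in empty vector, 2.46-fold lower (2.44 to 2.47). Its log2 ratio of -1.29 became -0.92 with the trend removed. Col1a2, its partner chain, went the other way across the rule, with -0.93 as deposited and -1.18 with the trend removed. Of 7 mesenchymal regulators measured, 1 was higher and 1, Snai1, lower, beside 2.55% and 1.64% of all genes. With the GC trend removed 1 was higher and 0 lower, with a median log2 ratio of -0.05. Snai1, a repressor of epithelial genes, was at 6.73 RPKM in OSKM and 16.6 in SKM, with 8.01 in G3SKM and 30.3 in empty vector. Its log2 ratio of -1.19 became -0.73. For Col1a1 and Snai1 alike, OSKM and G3SKM lay below both SKM and empty vector. The immediate early factor Junb behaved likewise, at -1.08 and -0.61, and was the 1 lower of 20 immediate early genes measured, beside 1.64% of all genes.

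Of 18 imprinted genes measured, the 2 past the rule as deposited were both from the Dlk1-Dio3 domain and both lower, beside 1.64% of all genes. After removal of the GC trend both stayed lower, and 1 of the 16 genes of other domains, Nnat, was past the rule and higher. Meg3, the maternally expressed long non-coding RNA of that domain, was at 6.78 RPKM in OSKM and 18.4 in SKM, with 17 in G3SKM and 16.9 in empty vector, 2.71-fold lower (2.66 to 2.77). Dlk1, its paternally expressed neighbour, was at 0.822 RPKM in OSKM and 3.39 in SKM, with 1.25 in G3SKM and 5.24 in empty vector. For Meg3 the 3 libraries without OCT4 were alike and OSKM was low, and its log2 ratio was -1.32 as deposited and -1.30 with the GC trend removed. The 16 imprinted genes of other domains had a median of 0.16, and Rtl1, a retrotransposon-derived gene of the Dlk1-Dio3 domain, was under the filter at 0.321 RPKM in OSKM and 0.143 in SKM.

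Cell cycle genes were not past the rule in either direction, 0 of 36, beside 2.55% of all genes higher and 1.64% lower. Their median log2 ratio was 0.24, or 0.19 with the GC trend removed. The largest in size was Ccnb1, a mitotic cyclin, at 12.8 RPKM in OSKM and 6.36 in SKM, with 11.4 in G3SKM and 10.8 in empty vector. Small nucleolar RNAs, which guide the modification of ribosomal RNA, gave 15 higher and 29 lower of 181, beside 2.55% and 1.64% of all genes. After removal of the GC trend 3 were higher and 36 lower, beside 0.96% and 1.03%, and their median was -0.53 beside -0.01 for all genes. Of 16 genes on a list of small nucleolar RNA host genes, 8 were measured, with a median of -0.34 and 0 past the rule. The RNAs were not matched to their own hosts. Snora73b was at 8.53 RPKM in OSKM and 26.8 in SKM, with 36.9 in G3SKM and 11.8 in empty vector, from 130 and 295 reads in OSKM and SKM. Most of these RNAs lie in introns of host genes, and reads of both cannot be told apart.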

How the data were processed

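Gene levels are the RPKM deposited by the authors, who per the file headers also gave the log2 of the ratio of both columns. That log2 ratio differed from the one of the deposited columns by at most 0.0017. Per the submitters' processing notes, reads were aligned with TopHat 1.3.0 to mm9. No source used here names the read counter, the annotation or how 2 replicates were merged. RNA had been amplified as cDNA and by further PCR, per the labels' protocols.

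Values of 0.001 were read as no reads. The SKM column was identical in all 3 tables (largest difference 0), so levels in G3SKM and empty vector stand on the same scale. Symbols, spans, exon lengths and transcript GC came from GENCODE M21 and matched 9478 of the 10211 genes. The values divide by the gene span, and their step gave depth and reads. Among genes with 1 to 1000 reads, 75.6% in OSKM and 74.8% in SKM came out whole to within 0.05, against 10% by chance. Fold intervals are 95% Clopper-Pearson intervals on these reads, given only where they came out whole in both libraries. They and the floor of 3 reads cover counting error only. The GC trend was removed by subtracting the median of each of 20 bins and adding back the overall median.

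Genes named were those of the delivered factors, the protein-coding genes at 5 RPKM or more with the 12 largest log2 ratios each way on either scale, the 10 largest on the exon-length scale, the 5 largest small RNAs and pseudogenes, and up to 8 members of each list in each direction, not all of which are given. Some genes are not reported here. The members and gene lists were chosen with earlier results of these data known. The procedure was tested on simulated data. Alternatives were pseudocounts of 0.1 and 5 RPKM, a filter of 5 RPKM or none, a rule of 2, median centring, trimmed-mean scaling, exon length, protein-coding genes alone, GC removal, and a minimum of 100 reads. Python 3.11.15, pandas 2.3.3, numpy 2.4.6, SciPy 1.17.1 and matplotlib 3.10.9 were used.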

Additional observations from a re-analysis of the deposited data

How the results depend on the processing

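The counts of genes past the size rule depended on the scale. Of 260 higher and 167 lower genes as deposited, a pseudocount of 0.1 RPKM gave 629 and 413, one of 5 RPKM gave 67 and 27, and a rule of log2 ratio 2 gave 5 and 4. Exon length gave 597 and 292, protein-coding genes alone 67 and 83, and removal of the GC trend 91 and 98. A filter of 5 RPKM gave 96 lower genes. No filter, centring, trimmed-mean scaling, a minimum of 100 reads, and exon length with GC removal stayed within 1.5 times the main counts. The last of these gave 318 higher and 165 lower, from more genes. No named gene past the rule and no list with a median past it changed sign under the 7 alternatives run for them. Removal of the GC trend took 38 of the named genes back under the rule, and a pseudocount of 5 RPKM took 63. The cause of these changes was not tested beyond the construction of each alternative. No paired analysis was possible because each group had 1 value per gene, with its 2 replicates combined. Depth was lowest in SKM and limits the genes whose ratios rest on few reads, and no depth replaces the missing replicates.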

Other observations

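Each of the housekeeping, stress and signalling lists in this paragraph held 1 member past the size rule, higher in OSKM, beside 2.55% of all genes. In lists of this length such a count is no result about the list. None of these members was past the rule with the GC trend removed. Idi1, an enzyme of isoprenoid synthesis, was the 1 of 20 cholesterol genes called higher, at 13.8 RPKM in OSKM and 6.32 in SKM, with 15.7 in G3SKM and 11.2 in empty vector. Psma1 was the 1 of 36 proteasome subunits, at 11.5 RPKM in OSKM and 5.13 in SKM, with 11.1 in G3SKM and 9.07 in empty vector. Ccng1, a target of p53, was the 1 of 18 p53 and senescence genes, at 63.0 RPKM in OSKM and 29.0 in SKM, with 55.7 in G3SKM and 65.3 in empty vector. In all 3 genes SKM was the low library. Grem1, a secreted BMP antagonist, was the 1 of 14 TGF-beta and BMP genes, at 4.06 RPKM in OSKM and 1.25 in SKM, with 1.97 in G3SKM and 2.48 in empty vector, and was highest in OSKM.

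Ldhb, a lactate dehydrogenase subunit, was past the rule with the GC trend removed alone, at 3.45 RPKM in OSKM and 1.23 in SKM, with 1.21 in G3SKM and 0.995 in empty vector. None of the 20 glycolysis genes was past it as deposited. Bglap and Bglap2, the closely similar osteocalcin genes, were the 2 lower of 4 cartilage and bone markers, beside 1.64% of all genes. Bglap2 was at 22.6 RPKM in OSKM and 55.6 in SKM, with 28.5 in G3SKM and 0.0841 in empty vector. Neither Bglap gene was past the rule with the GC trend removed. None of the 16 contractile genes, 21 Hox genes, 2 mesendoderm specifiers or 3 trophoblast genes measured was past it as deposited. Over all genes, 2.55% were higher and 1.64% lower. The contractile genes had a median log2 ratio of -0.41, or -0.24 with the trend removed.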
